A study of Homo sapiens with 48 samples.

Results

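The knockout screen described here is the culture arm of CAL27, an established line from a human tongue squamous cell carcinoma. Its members are all 327 genes of the 327 in the authors' table for CAL27 grown in culture, with the non-targeting guides, which cut no gene, kept apart as the reference. That table holds 2 of the 38 value columns of the series, 1 for each culture taken after 3 weeks, and rests on 4 of its 48 samples, which are 2 later cultures and 2 samples of the initial cells. The whole study, a pooled CRISPR screen titled as work on human squamous cell carcinoma, asked which of its library genes squamous carcinoma lines need in culture and in xenografts. All groups used here carried a stable Cas9 nuclease brought in with a lentivirus and selected with blasticidin, and all were infected with the same guide library at a multiplicity of infection of 0.3 and selected with puromycin, initial cells included. The CAL27 initial cells were frozen after selection, and the CAL27 cultures grew on for 3 weeks in a dish. Culture of A431, an epidermoid carcinoma line, followed the same scheme with 2 later cultures and 2 initial samples. CAL27 tumors were 10 xenografts taken about 2 months after the cells were mixed with Matrigel and injected into the flanks of SHO mice, an immunodeficient strain, and they have 2 initial samples of their own. No age or genotype of the mice beyond the strain was used here, and no gene expression was measured, so the identity of the line could not be checked against markers.

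In a pooled knockout screen each cell receives a guide that directs Cas9 to cut 1 gene, and the guides are counted by sequencing the genomic DNA of the population. A guide whose target is needed for growth is lost over time, because the cells that carry it divide less or die, and a guide whose target holds growth back gains share. Squamous carcinoma cells in a dish depend on the general machinery of DNA replication, mitosis and translation, and many keep the identity of basal keratinocytes, which is set by the transcription factor TP63 and by signals from integrins and the EGF receptor.

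Each value is a log fold change of a gene between the later and the initial cells, and the deposited values are relative to the non-targeting guides. No source used here states the base of the logarithm. Values are therefore called log units, and a value below 0 is read as loss of the knockout. In the deposited values the median gene lay at -0.47 in value column 1 and at -0.49 in value column 2. The table held 318 genes below the non-targeting guides in column 1 and 322 in column 2, with 313 below in both and none above in both. The mean of both columns lay above the non-targeting guides in 3 genes, VSNL1, ELF2 and NMU. Values below were centred on the median gene of their column, which puts the non-targeting guides at 0.47 and 0.49, so "lower" means lower than the median library gene. On this scale the middle of the library was narrow, with quartiles at -0.27 and 0.13 in column 1 and at -0.32 and 0.15 in column 2. The tail was long on 1 side only, since the 5th percentile lay at -1.37 and -1.36 while the 95th lay at 0.41 and 0.39.

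The cultures ranked the genes alike. Across the 327 genes, which are not independent replicates, the Pearson correlation of both columns was 0.918 and the Spearman correlation 0.829, and over the 266 genes not called lower the Pearson correlation was 0.671. The median absolute difference between the cultures was 0.13 log units over all genes and 0.20 over the lower genes. A single exact value was shared by 10 genes in column 1 and by 7 in column 2, with 6 genes sharing it in both. That value lay within 0.01 of the median gene in each column, and how it arose was not tested. Read depth is unknown, as the tables hold no counts.

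**Figure D1:**
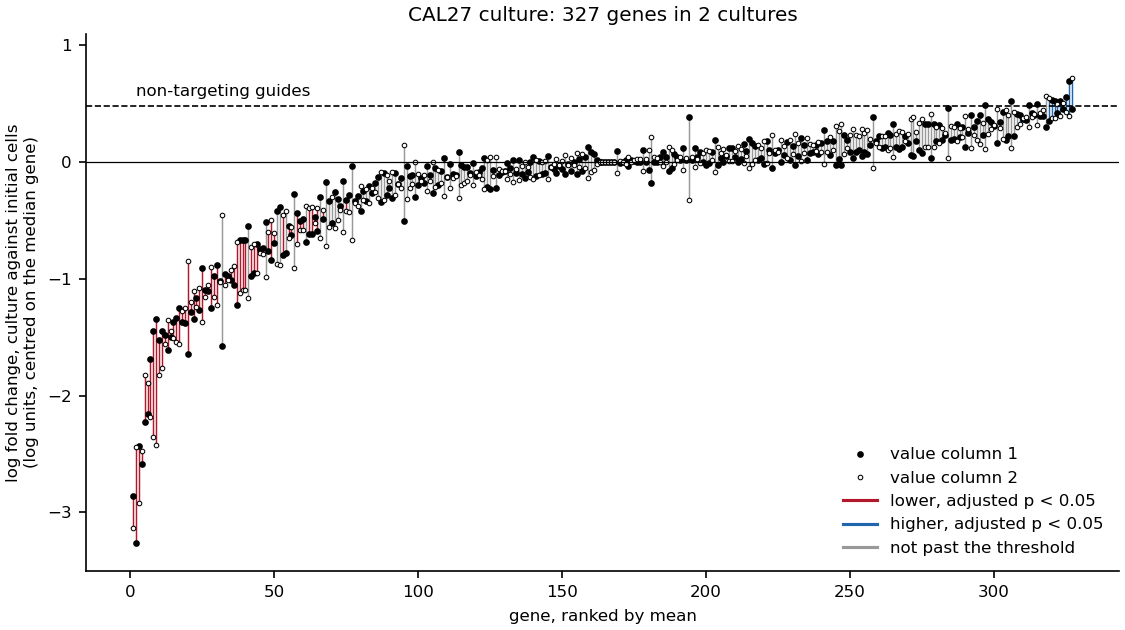
Log fold change of 327 genes in 2 CAL27 cultures against initial cells (log units, centred on the median gene), ranked by the mean of both, with a filled and an open point per gene for value columns 1 and 2 joined by a line coloured by the call. The lowest gene has a mean of -3.00 and the highest 0.59, and the dashed line of the non-targeting guides lies above nearly all genes.

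With limma's moderated test in each gene and Benjamini-Hochberg adjustment over all 327 genes at 0.05, 61 genes (18.7%) were lower than the median gene and 16 (4.89%) were higher. Against the non-targeting guides instead, 293 genes (89.6%) were lower and none was higher, with 294 at an unadjusted p under 0.05. That fit took the non-targeting guides as an exact 0, so their error is not in it. The distance of the median gene from those guides enters the value of every gene at once. The means of the lower genes ran from -3.00 to -0.34, with 33 genes below -1 and 6 below -2. The means of the higher genes ran only from 0.37 to 0.59. At the edge of the threshold ELF2, with an adjusted p of 0.0487 in the limma fit, was called higher, and LY6D, with 0.0503, was not. Dropping a culture and borrowing the spread of the A431 cultures left 37 lower genes without value column 1 and 30 without value column 2, of which 33 and 30 were among the 61. None of the 16 higher genes was called by limma in either case, with 76 and 73 genes in both directions at an unadjusted p under 0.05. The labels do not say whether the cultures were started separately, so these p-values measure only the spread between 2 samples, and the error of the shared initial cells is in no test.

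Among the lowest genes were 2 of thymidine supply and the maintenance DNA methyltransferase. DUT, the enzyme that breaks down dUTP so that uracil stays out of DNA, had -2.86 and -3.14 in the cultures, the lowest mean of all genes (-3.00, SE 0.10, limma adjusted p = 0.0073). TYMS, thymidylate synthase, which makes dTMP from the product of DUT, had -2.43 and -2.92 (mean -2.67, SE 0.15). Both genes lay far below the median gene in both cultures. RRM2, a subunit of ribonucleotide reductase, had -0.03 and -0.67 and did not pass, and TK1, the salvage thymidine kinase, had 0.06 and 0.14. Thus 2 of the 4 measured genes of thymidine and dNTP supply (50%, against 18.7% over all genes) were lower and none was higher. DNMT1, which copies DNA methylation onto new strands, had -2.58 and -2.47 (mean -2.53, SE 0.07). It was the only 1 of 4 chromatin enzymes called (25%, against 18.7% over all genes). EZH2, the histone H3 methyltransferase of Polycomb, had -0.13 and -0.16, and HDAC1, a histone deacetylase, had the highest mean of the list at 0.18.

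The replication fork was the most uniformly depleted of the larger lists. Of its 9 measured genes 7 (77.8%) were lower, none was higher, and the median was -1.31, against 18.7% lower over all genes. GINS2, a subunit of the GINS part of the replicative helicase, had -1.45 and -2.35. The helicase subunits MCM3, MCM5 and MCM7 had means of -1.44, -1.31 and -1.52, and in each the cultures lay within 0.15 of each other. FEN1, the nuclease that trims Okazaki fragments, had -1.52 and -1.83, PCNA, the sliding clamp, had -1.10 and -1.15, and CLSPN, the checkpoint adaptor claspin, had -0.74 and -0.78. POLE3, a small subunit of DNA polymerase epsilon, had the highest mean of the list at 0.01. BRCA1, which repairs breaks by homologous recombination, had -1.69 and -2.18 (mean -1.93, SE 0.15). It was the only lower gene of 3 in DNA repair (33.3%, against 18.7% over all genes), where ATAD2, a chromatin ATPase, stood at 0.23.

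Genes of mitosis followed, with smaller values. Of 11 measured genes around cyclin B, CDK1 and the anaphase-promoting complex, 7 (63.6%) were lower, none was higher, and the median was -0.49. UBE2C and UBE2S, the ubiquitin-conjugating enzymes of the anaphase-promoting complex, had -1.25 and -1.56, and -0.97 and -1.01. CCNB1, cyclin B1, had -0.88 and -1.22 (mean -1.05), whereas CCNB2, cyclin B2, had the highest mean of the list at 0.11. PTTG1, the securin that holds back separase, had a mean of -0.82, CKS2, a CDK-binding subunit, -0.65, CDK1 -0.49, and PLK1, a mitotic kinase, -0.39. Among 11 genes of the spindle and of chromosome structure 4 (36.4%) were lower, against 18.7% over all genes, and with the columns centred on their mode TPX2 alone stayed lower. SMC4, a condensin subunit, had -1.34 and -2.42, BIRC5, survivin, of the chromosomal passenger complex, had -0.79 and -0.46, TPX2, a spindle assembly factor, had -0.63 and -0.55, and NUSAP1, a microtubule-binding protein, had -0.61 and -0.38. ASPM, a spindle pole protein, was highest at 0.14. Of 6 genes of tubulins and stathmin, TUBB4B (-1.27 and -1.08), TUBA1B (-1.11 and -1.05) and TUBA1C (-0.95 and -1.05) were lower, and TUBB2A was highest at 0.22. The lower share of that list was 50%, against 18.7% over all genes.

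Translation was depleted as a whole list. All 5 measured genes were lower, against 18.7% over all genes, with a median of -1.20. Of these, RPS19, PABPC1, YBX1 and RPSA have near copies elsewhere in the genome, as described below. RPS19, a protein of the small ribosomal subunit, had -1.49 and -1.45 (mean -1.47, SE 0.06), and GNB2L1, the ribosomal scaffold RACK1, had -1.33 and -1.54. PABPC1, the poly(A)-binding protein, had a mean of -1.20, YBX1, an RNA-binding protein, -1.14, and RPSA, another protein of the small subunit, -0.95. Other housekeeping genes were lower one by one. PKM, pyruvate kinase of glycolysis, was second lowest of all with -3.26 and -2.44 (mean -2.85, SE 0.24, limma adjusted p = 0.0105). SLC2A1, the glucose transporter GLUT1, had -1.34 and -1.10. Thus 2 of 5 genes of glycolysis and hypoxia (40%, against 18.7% over all genes) were lower, while NDRG1 stood at 0.25. HSP90B1, the chaperone of the endoplasmic reticulum, had -0.97 and -1.16. It was the only lower gene of 5 chaperones (20%, near the 18.7% over all genes), of which XBP1 was highest at 0.23.

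Of 13 measured genes of actin turnover and actin binding, 5 (38.5%, against 18.7% over all genes) were lower and none was higher, with a median of -0.06. The lower ones were PFN1, profilin, which loads actin monomers (-2.15 and -1.89), ACTB, cytoplasmic actin (-1.45 and -1.76), CFL1, cofilin, which severs filaments (-1.61 and -1.36), ARPC2, a subunit of the branching Arp2/3 complex (-1.37 and -1.27), and FSCN1, the bundling protein fascin (-0.32 and -0.42). FLNA, the crosslinker filamin A, was highest at 0.35 and did not pass.

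Among transcription factors, MYC was lowest, with -2.23 and -1.82 (mean -2.02, SE 0.13, limma adjusted p = 0.0073). MAX, its dimer partner, had -0.47 and -0.52. In the list of AP-1 factors and MYC, FOSL1 (mean -1.24) and JUNB (-0.76) were lower as well, while JUN, FOS, JUND, ATF3 and BHLHE40 were not called, BHLHE40 being highest at 0.32. The lower share was 37.5% in this list and 25% in the next, against 18.7% over all genes. Of 8 G1 regulators and E2F factors MYBL2, which drives mitotic genes, had -1.01 and -0.93, E2F1 had -0.48 and -0.58, and E2F7, a repressor of the family, was highest at 0.25 without passing. RELA, the NF-kB subunit, had -0.67 and -1.10. It was the only lower gene of 6 in the interferon, MHC and NF-kB list (16.7%, near the 18.7% over all genes), with the chemokine CXCL14 highest at 0.17.

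TP63, the master factor of stratified epithelia, was the only lower gene among 14 squamous and epidermal transcription factors (7.14%, against 18.7% over all genes). It had -1.02 in both cultures (SE 0.06, limma adjusted p = 0.0073). In the same list ELF2, ID2 and REST were higher (21.4% against 4.89% over all genes, and none of them with the columns centred on their mode), with 0.69 and 0.40, 0.53 and 0.37, and 0.53 and 0.38. ELF2 is an ETS family factor, ID2 an inhibitor of basic helix-loop-helix factors, and REST a repressor of neuronal genes. Of 9 keratins 2 (22.2%) were lower and 1 (11.1%) was higher, against 18.7% and 4.89% over all genes, so the lower share is near the background and the higher call is a single gene. KRT14 had -0.55 and -0.65 and KRT16 -0.84 and -0.49, while KRT5, the usual partner of KRT14 in basal cells, had 0.53 and 0.39.

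None of 15 integrins and adaptors passed the test in the dish in either direction, with a median of 0.00 and means from -0.44 for FERMT1 to 0.33 for LAMA3, a laminin chain. FERMT1, kindlin-1, which activates integrins, had -0.17 and -0.72 (limma adjusted p = 0.163), and ITGB1, the integrin beta 1 chain, had -0.10 and -0.32 (0.194). None of 27 genes of matrix and invasive front passed, with means from -0.41 for PTRF, a caveolae protein, to 0.39 for IGFBP7, a secreted protein that binds insulin-like growth factors. EGFR, the receptor of epidermal growth factor, had -0.54 and -1.17, a mean of -0.85 that missed the threshold (SE 0.19, limma adjusted p = 0.0609) with cultures 0.62 apart. YWHAZ, a 14-3-3 adaptor, was the only lower gene of the 3 in that signalling list (33.3%, against 18.7% over all genes), with -0.48 and -0.41. SFN, another 14-3-3 protein, had the highest mean at -0.05. Not passing does not show that these knockouts had no effect. Against the non-targeting guides 14 of the 15 integrin genes and 23 of the 27 matrix genes were lower. These counts are near the share over all genes, where 293 of 327 (89.6%) were lower.

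**Figure D2:**
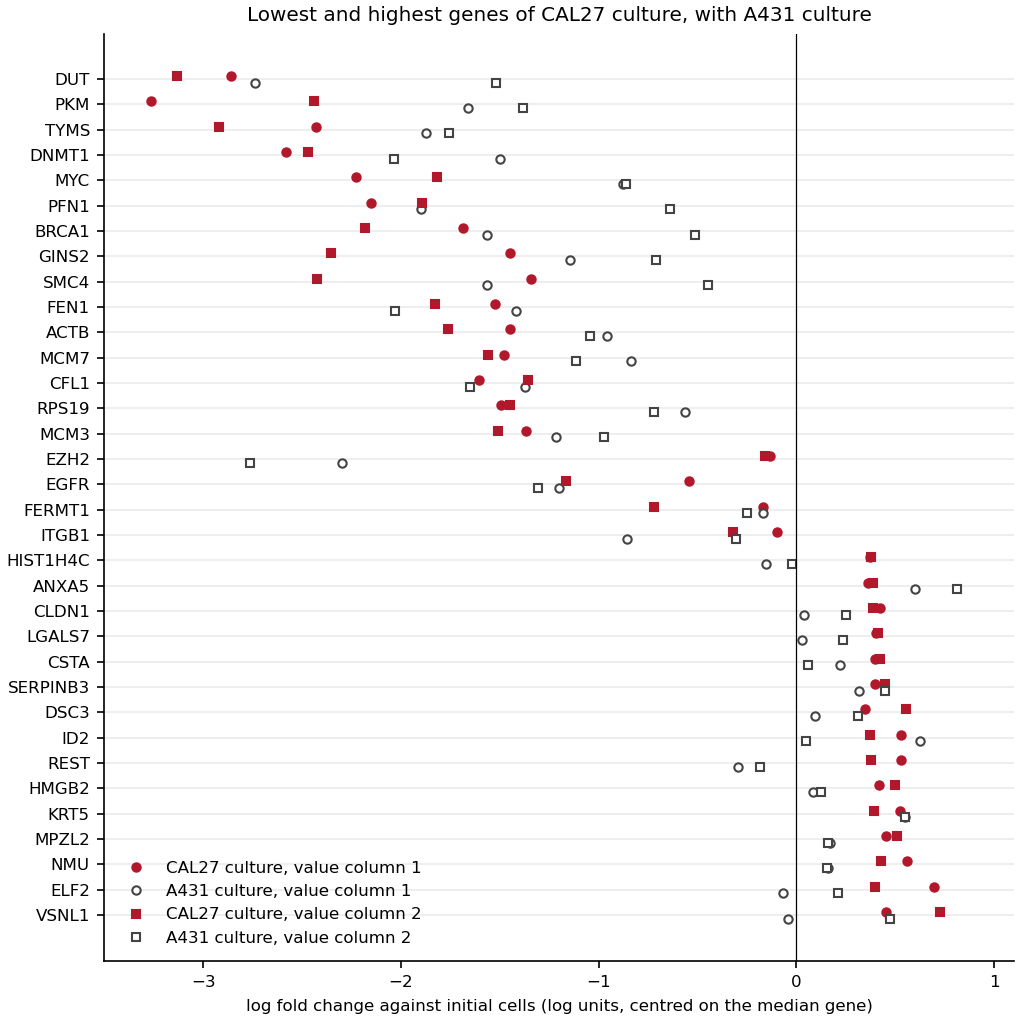
Log fold change against initial cells (log units, centred on the median gene) of the 15 lowest and 15 of the 16 higher genes of CAL27 culture, with EZH2, EGFR, FERMT1 and ITGB1 between them, in 2 CAL27 cultures (filled) and 2 A431 cultures (open). The higher CAL27 genes lie in a narrow band around 0.45 with both cultures above 0.30, and EZH2 lies near -0.15 in CAL27 and near -2.53 in A431.

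The 16 higher genes included 4 of cell junctions, 3 of keratinocyte differentiation and 2 of chromatin, with DSG1 counted in both of the first lists. VSNL1, a neuronal calcium sensor, was highest with 0.45 and 0.73 (mean 0.59, SE 0.10, limma adjusted p = 0.0403), and NMU, the peptide neuromedin U, had 0.56 and 0.43. Of 13 genes of desmosomes and other junctions 4 (30.8%) were higher and none was lower, against 4.89% higher over all genes, and the median was 0.18. These were MPZL2, an adhesion protein (0.45 and 0.51), DSC3, a desmosomal cadherin (0.35 and 0.55), CLDN1, a tight junction claudin (0.42 and 0.39), and DSG1, another desmosomal cadherin (0.41 and 0.33). PKP1, a desmosomal plaque protein, was lowest of the list at -0.19. Of 24 genes of differentiation and cornification CSTA, cystatin A, LGALS7, galectin-7, and DSG1 were higher. In that list 2 were lower, FABP5, a fatty acid carrier (-0.67 and -1.12), and GLTP, a glycolipid transfer protein (-0.50 and -0.58). The shares were 12.5% higher and 8.33% lower, against 4.89% and 18.7% over all genes. Of 11 genes of histones and chromatin architecture HMGB2 and HIST1H4C were higher, with means of 0.46 and 0.37. PTMA, prothymosin alpha, and DNAJC9, a histone chaperone, were lower, with -1.08 and -0.88. Each direction held 18.2% of that list, so the lower share is near that over all genes. ANXA5, a phospholipid-binding annexin, was higher with 0.36 and 0.39. It was the only higher gene in a list of 10 (10%, against 4.89% over all genes), where S100A11 was lowest at -0.60 without passing. SERPINB3, a protease inhibitor, had 0.40 and 0.45, the only higher gene of 14 serpins and proteases (7.14%, against 4.89% over all genes). None of the 16 was called higher than the non-targeting guides. Their means lay below those guides in 13 genes and above them in VSNL1, ELF2 and NMU. With the columns centred on their mode, 10 of the 16 stayed higher, among them 2 of the 4 junction genes.

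Of the 16 higher genes 8 lie on 2 chromosomes, which were singled out after their values were seen and are described without a test. By the GENCODE annotation on GRCh37, 13 library genes lie on chromosome 4 and 12 on chromosome 18, and their median values were 0.31 and 0.30. On chromosome 4, ANXA5, ELF2, HMGB2, NMU and REST were higher and 12 of the 13 genes lay above the median gene. On chromosome 18, DSC3, DSG1 and SERPINB3 were higher, 10 of the 12 genes lay above the median gene, and TYMS was the only lower one. Together these 25 genes held 8 higher genes, which is 32% of the 25, against 2.68% of the 299 genes on other chromosomes. Both desmosomal cadherins among the higher junction genes lie on chromosome 18. In A431 culture the same 25 genes had a median of 0.13, against -0.01 for the other chromosomes, and in CAL27 tumors 0.41 against -0.06. The lowest medians were those of chromosome 20, at -0.59 with 5 of 7 genes lower, and of chromosome 17, at -0.41 with 7 of 19 lower. Over all genes 18.7% were lower. Without their lower genes these chromosomes had medians of -0.12 over 2 genes and -0.10 over 12 genes. The 5 lower genes on chromosome 20 are UBE2C, PCNA, MYBL2, TPX2 and E2F1.

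**Figure D3:**
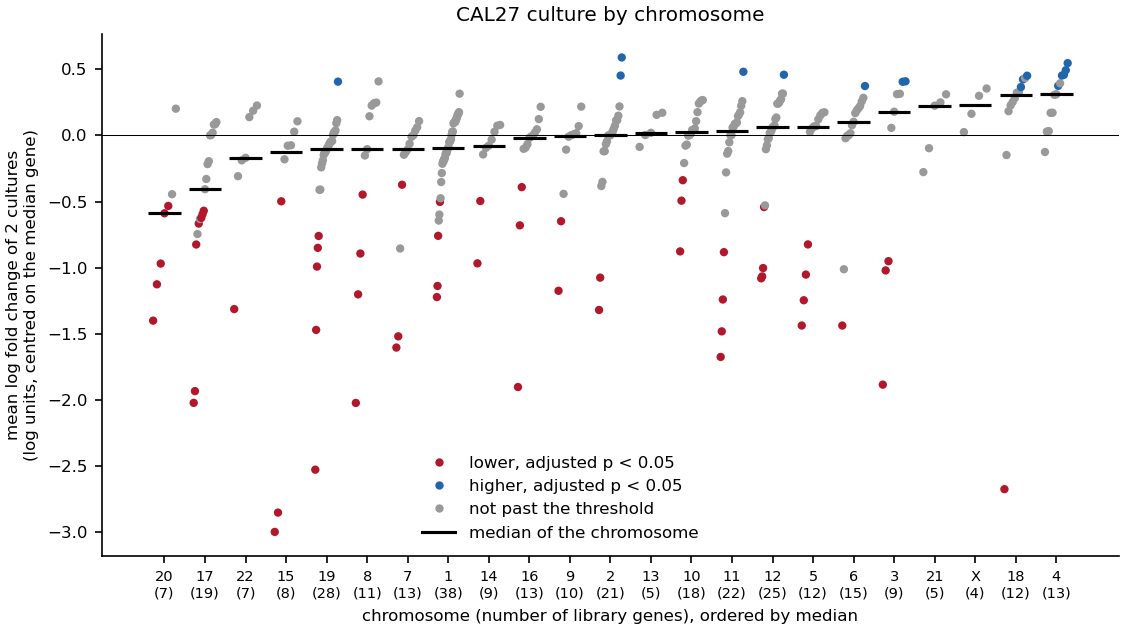
Mean log fold change of 2 CAL27 cultures (log units, centred on the median gene) for 324 annotated genes by chromosome, ordered by the median of the chromosome (bar), with points coloured by the call. Chromosomes 4 and 18 stand at the right with medians of 0.31 and 0.30, and chromosome 20 at the left with -0.59.

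Several depleted genes have near copies elsewhere in the genome, and a guide that fits both copies reports on both. The guides of the library were not used here. As a measure of how often this could occur, each coding exon was searched for candidate Cas9 sites, meaning 20 bases followed by NGG on either strand, and each site was matched to GRCh37. The annotation held coding exons for 324 of the 327 genes, with 70220 sites in all. Among 236 genes with fewer than 10% of sites repeated elsewhere, 30 (12.7%) were lower and the median was 0.02. Among 50 genes with 10% to 50% repeated, 17 (34%) were lower and the median was -0.21, and among 38 genes with at least 50% repeated, 14 (36.8%) were lower and the median was -0.37. The last 14 include ACTB, RPS19, PABPC1, YBX1, TUBA1B, TUBA1C, UBE2S, RPSA, KRT14 and KRT16. Of the 6 genes with a mean below -2, DUT had 3.2% of its sites repeated, PKM 39.2%, TYMS 6.25%, DNMT1 1.0%, MYC 0% and PFN1 43.3%. In A431 culture the genes with at least 50% repeated had a median of -0.34. Whether repeated cutting adds to the depletion of these genes was not tested.

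Some pairs of library genes that share sites are shown, because a single guide could knock out both members. The choice is not complete. KRT6A, KRT6B and KRT6C, which are not shown, had 77.2%, 85.9% and 89.9% of their sites in another library gene. The lines give, for each pair, a candidate site found in both genes and nowhere else in GRCh37, written 5′ to 3′, with the adjacent NGG in capitals. Positions are those of the coding exons on GRCh37.
LGALS7 and LGALS7B, chr19:39261675-39261697 on the minus and chr19:39282302-39282324 on the plus strand: acgtgcagctggactccgtgAGG
TUBA1B and TUBA1C, chr12:49522083-49522105 on the plus and chr12:49666652-49666674 on the minus strand: cttggttttgatggtggcaaTGG
KRT14, chr17:39742833-39742855 on the minus strand: agcagctttggtagtggcttTGG
KRT16, chr17:39768693-39768715 on the minus strand: agcagctttggtagtggcttCGG
SERPINB3 and SERPINB4, chr18:61322899-61322921 and chr18:61304961-61304983, both on the plus strand: atgagaatctgccatagaagAGG
The pairs behaved differently. TUBA1B and TUBA1C, alpha tubulins with 70.1% and 71.1% of their sites in the other gene, had close values, as given above. KRT14 and KRT16 (35% and 36.7%) had -0.60 and -0.67, and SERPINB3 and SERPINB4 (50% and 53.8%) had 0.42 and 0.28. LGALS7 and LGALS7B, both coding for galectin-7, had 94.9% and 92.5% of their sites in the other gene and yet opposite values, 0.40 and 0.41 for LGALS7 against -0.52 and -0.30 for LGALS7B. LGALS7 was called higher, and LGALS7B did not pass (limma adjusted p = 0.0566). With so many shared sites, values of either gene cannot be assigned to that gene alone.

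The cultures disagreed in a few genes. The difference between both columns exceeded 0.5 log units in 12 of the 327 genes, of which 5 were called lower. SMC4 had the largest drop from column 1 to column 2, by 1.08, and TUBB, a beta tubulin, the largest opposite difference, with -1.57 in column 1 and -0.45 in column 2. TUBB therefore missed the threshold with a mean of -1.01 (SE 0.32, limma adjusted p = 0.125). RRM2, EGFR, FERMT1, IFITM3, CDC20 and S100A8 also differed by more than 0.5 and did not pass, and PKM, GINS2, BTF3 and RPSA passed. CDC20, the activator of the anaphase-promoting complex, and S100A8, an inflammatory calcium-binding protein, changed sign between the cultures, with -0.50 and 0.15, and 0.38 and -0.32.

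Set beside A431 culture, most genes lower in CAL27 also lay below the median gene. Of the 61 lower genes 53 lay below the median gene in A431 culture, against 102 of the 250 genes not called, and of the 16 higher genes 14 lay above it. Across all 327 genes the line means had a Pearson correlation of 0.758 and a Spearman correlation of 0.607, with genes not independent. The lines were then compared gene by gene in 1 limma fit of the 4 columns. CAL27 was lower than A431 in 9 genes (2.75%) and higher in 1 (0.306%), with 74 genes at an unadjusted p under 0.05.

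The gene that was higher in CAL27 was EZH2. It had -0.13 and -0.16 in the CAL27 cultures and -2.30 and -2.76 in the A431 cultures, a difference of 2.38 (SE 0.18, limma adjusted p = 0.0035), with both groups far apart. In A431 it was the lowest gene of the screen, and in CAL27 it did not pass. CDC20 and TFDP1, the dimer partner of E2F factors, came next at 0.75 each without passing (limma adjusted p of 0.137 and 0.0869).

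The 9 genes lower in CAL27 included 3 of the replication fork, 2 of translation and RNA binding, and MYC. PCNA had -1.10 and -1.15 in CAL27 and 0.25 and -0.03 in A431, a difference of -1.24 (SE 0.15, limma adjusted p = 0.0232). MYC had -0.88 and -0.86 in A431, so it was lower than the median gene in both lines and lower in CAL27 by a difference of -1.15 (SE 0.17). YY1, a zinc finger transcription factor, had -1.05 and -0.89 in CAL27 and 0.03 and -0.08 in A431. MCM5, PABPC1, RPS19, MYBL2 and CLSPN differed by -0.91, -0.83, -0.83, -0.80 and -0.77, and CKS2, the ninth, by -0.72. In all 9 genes the CAL27 and A431 columns did not overlap, but these genes were picked by a test on the same columns, so this adds no support. Of the 9 replication fork genes 3 were lower in CAL27 and none was higher, with a median difference of -0.54 against -0.02 over all genes. DUT (-0.87), ITGB1 (0.37), FERMT1 (-0.24) and EGFR (0.40) did not pass. The comparison rests on every column. Leaving out any of the 4 left no gene lower by limma, with 37 to 78 genes at an unadjusted p under 0.05, and EZH2 stayed past the threshold only without A431 value column 1. CAL27 columns had a wider spread over genes, and scaling all columns to equal SD left PCNA as the only lower gene and EZH2 as the only higher one.

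**Figure D4:**
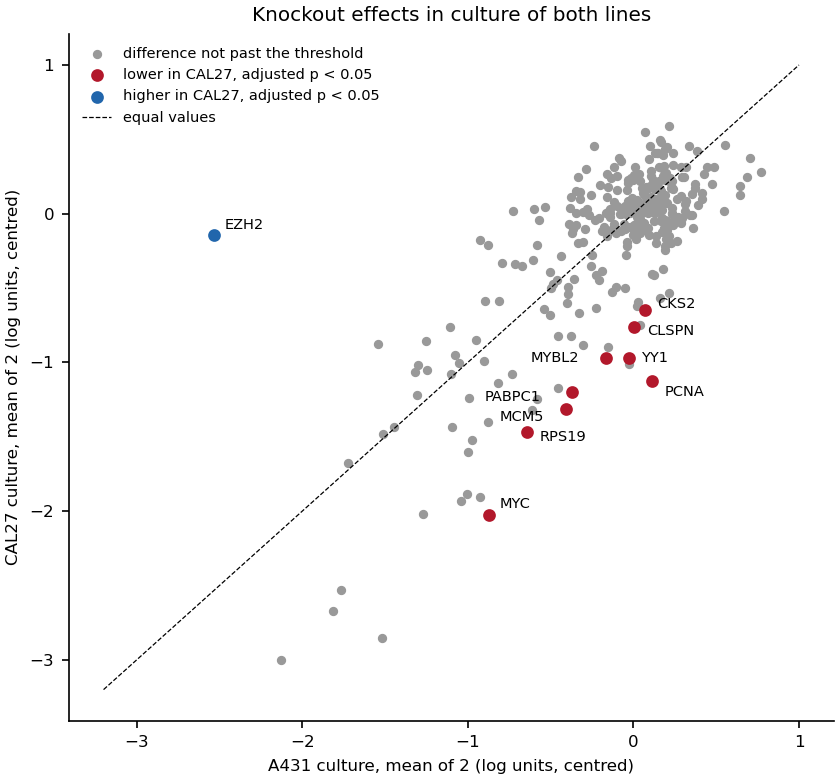
Mean log fold change of each gene in 2 A431 cultures (horizontal) and 2 CAL27 cultures (vertical), in log units centred on the median gene of each column, with the line of equal values. The 9 genes lower in CAL27 lie below that line, led by PCNA with a difference of -1.24, and EZH2 is the only called gene above it, with 2.38.

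CAL27 tumors were set against the cultures to see which culture values carried over to growth in mice. The tumors are relative to their own initial cells. The median SD per gene was 1.09 over the tumors and 0.093 over the CAL27 cultures, so the fit gave each setting its own variance, with a tumor variance 19.6 times that of the cultures. In that limma fit 47 genes (14.4%) were lower in tumors than in culture and 54 (16.5%) were higher. Across genes the setting means had a Pearson correlation of 0.652 and a Spearman correlation of 0.474. The calls rest on the variance model. With 1 common variance no gene was called by limma in either direction, and 30 had an unadjusted p under 0.05. The fits that left out a culture also used 1 common variance. They therefore cannot show whether the calls rest on both cultures.

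Of the 15 integrins and adaptors, none of which passed in culture, 4 were lower in tumors (CD151, FERMT1, ITGB1 and LAMA3) and 3 were higher (DST by 1.90, ITGB4 by 1.59 and LAMB3 by 0.92), or 26.7% and 20% against 14.4% and 16.5% over all genes. With the columns scaled to equal SD, CD151 and LAMB3 were no longer called. That left 3 lower (20%, against 5.51% over all genes) and 2 higher (13.3%, against 20.2%). FERMT1, at -0.17 and -0.72 in culture, ran from -6.02 to -2.45 in the 10 tumors with a median of -4.37, a difference of -3.69 (SE 0.42, limma adjusted p = 6.9e-06). ITGB1 ran from -7.24 to -1.75 with a median of -3.57, a difference of -3.46 (SE 0.51). All 10 tumors lay below both cultures for both genes. Both are among the largest called differences on the same columns, so this adds no support. HSPA5, the chaperone BiP, at -0.33 and -0.55 in culture, differed by -2.54, and EGFR by -2.12, with 9 of 10 tumors below both cultures for EGFR. DUT (-2.36), MCM5 (-2.28) and SMC4 (-2.03), lower in culture, and TUBB (-2.01), which missed the threshold there, were lower in tumors than in culture. With the columns scaled to equal SD, the differences of DUT, MCM5 and SMC4 turned to 1.95, 0.15 and 0.84, so their direction depends on the scale. On that scale FERMT1 (-1.73), ITGB1 (-1.82) and HSPA5 (-1.04) still passed in limma, and EGFR (-0.23) and TUBB (-0.11) did not. An exact two-sided permutation test over the 66 assignments of 12 columns, whose smallest p is 0.0152, gave 0.0152 for FERMT1 and EZH2, 0.0303 for EGFR, 0.0455 for ITGB1 and 0.0606 for DUT. Adjusted over these 5 genes, the exact permutation p-values were 0.0379 for FERMT1 and EZH2, 0.0505 for EGFR, 0.0568 for ITGB1 and 0.0606 for DUT.

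TYMS went the other way. It was at -2.43 and -2.92 in culture. In tumors it ran from -0.88 to 2.68 with a median of 0.11, a difference of 3.08 (SE 0.39, limma adjusted p = 2.0e-05). All 10 tumors lay above both cultures, but TYMS was picked by a test on the same columns, so this adds no support. Its neighbour in the pathway, DUT, lay at a median of -4.99 in the same tumors. EZH2 ran from 0.48 to 3.82 in tumors, a difference of 2.46. E2F1, lower in culture, ran from -0.01 to 4.31, a difference of 2.34. DEGS1, a ceramide desaturase (2.60), TPM2, a tropomyosin (2.49), ADM, adrenomedullin (2.46), DMKN, dermokine (2.34), and LGALS7B (2.26) lay within 0.5 of the median gene in culture apart from 1 LGALS7B column, and were higher in tumors. TPM2, ADM and DMKN carried the exact shared value described above in at least 1 culture column. Of the 61 genes lower in culture 24 (39.3%) were lower in tumors than in culture, against 14.4% over all genes, and 6 (9.84%, against 16.5%) were higher, ACTB, CKS2, E2F1, MYBL2, TXNDC17 and TYMS. The first count depends on the scale. With the columns scaled to equal SD none of the 61 was lower in tumors by limma and 31 were higher, the same 6 included, so only those 6 calls hold on both scales. Of the 16 genes higher in culture 2 (12.5%, against 16.5% over all genes) were called, HIST1H4C and LGALS7, both higher in tumors. This depends on the scale too. With the columns scaled to equal SD none of the 16 was higher in tumors by limma and 3 were lower (18.8%, against 5.51% over all genes).

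**Figure D5:**
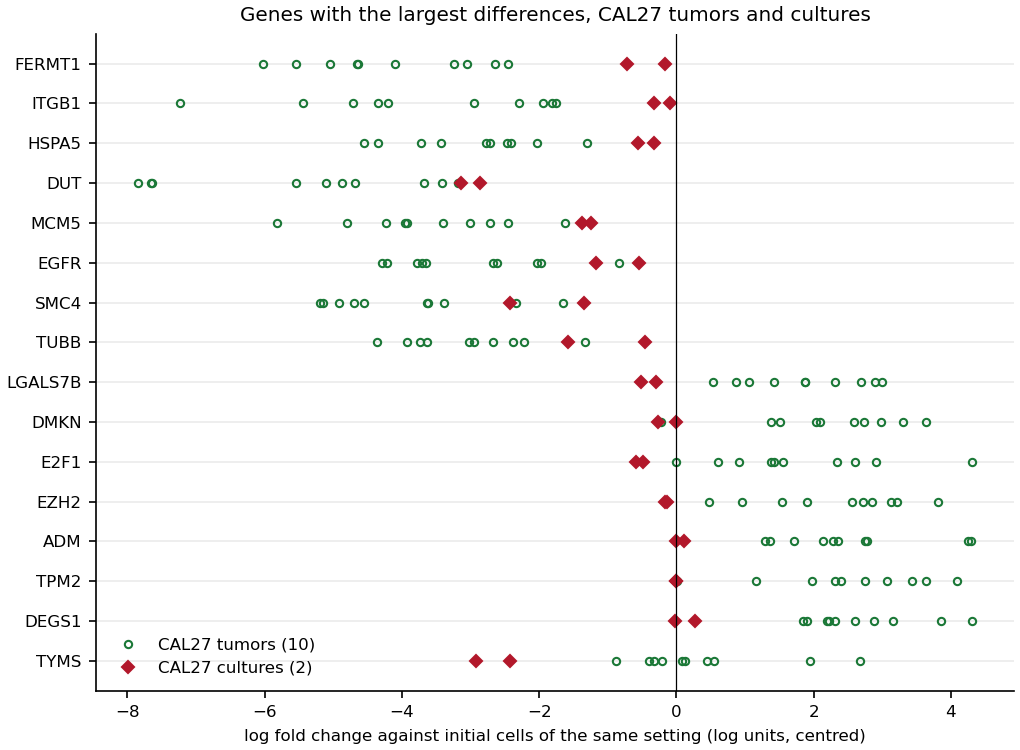
Log fold change against initial cells (log units, centred on the median gene) in 10 CAL27 tumors (circles) and 2 CAL27 cultures (diamonds) for the 8 most negative and 8 most positive called differences. FERMT1 and ITGB1 lie near the median gene in culture and between -7.24 and -1.75 in tumors, while TYMS lies near -2.67 in culture and between -0.88 and 2.68 in tumors.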

How the data were processed

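Guide RNAs were sequenced from genomic DNA of CAL27 and A431 cells. Bowtie2 is named in the submitters' processing notes, without a version, and no genome build is stated. The authors deposited log fold changes per gene, without counts, log base or guide summary, so depth and precision per value are unknown. Value columns were tied to groups by the table's name and carry no replicate numbers.

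Each column was centred on its median over 327 genes, and the deposited values were the first alternative. limma 3.58.1 in R 4.3.3 (lmFit, eBayes) tested CAL27 culture against 0, CAL27 against A431 culture, and CAL27 tumors against culture with a variance per setting (arrayWeights), with Benjamini-Hochberg adjustment at 0.05. The fits assume 1 log base and guide summary for all tables. Scripts were tested on simulated data. Alternatives were other centrings, moderation, thresholds, variance models, equal scaling, and leaving out columns.

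Gene names and positions came from GENCODE 44 lifted to GRCh37; C6ORF48, DDIT4 and SLC25A6 had no match. The genes named were the 15 lowest and 15 highest called means, the largest differences between cultures, called list members with each list's extremes, the 8 largest called differences per comparison (3 where fewer passed), the genes at the threshold, and ITGB1, FERMT1, EGFR, EZH2 and DUT. Genes outside this rule were chosen after their values were seen. The members and the 24 gene lists were chosen with earlier results of these data known.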

Additional observations from a re-analysis of the deposited data

Results flagged for a closer look

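These differences were past the threshold in limma fits of CAL27 culture against another line or setting. Against A431 culture, CAL27 was lower for PCNA (-1.24), MYC (-1.15), YY1 (-0.94), MCM5 (-0.91), PABPC1 (-0.83), RPS19 (-0.83), MYBL2 (-0.80) and CLSPN (-0.77), and higher for EZH2 (2.38). CAL27 tumors were lower than CAL27 culture for FERMT1 (-3.69), ITGB1 (-3.46), HSPA5 (-2.54), DUT (-2.36), MCM5 (-2.28), EGFR (-2.12), SMC4 (-2.03) and TUBB (-2.01). They were higher for LGALS7B (2.26), DMKN (2.34), E2F1 (2.34), EZH2 (2.46), ADM (2.46), TPM2 (2.49), DEGS1 (2.60) and TYMS (3.08). For none of the 16 genes of the tumor comparison did a single tumor stand apart from the other 9.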

How the results depend on the processing

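Each CAL27 culture result was counted once per alternative. Of these counts, 504 kept direction and side of the threshold, 202 lost the threshold, 10 gained it and 13 turned, all 13 in the values as deposited. As deposited, 293 genes were lower and 0 higher, and the 13 turned means were ANXA5 -0.11, CLDN1 -0.076, CSTA -0.0725, DSC3 -0.0302, DSG1 -0.12, HIST1H4C -0.11, HMGB2 -0.0235, ID2 -0.0289, KRT5 -0.0228, LGALS7 -0.075, MPZL2 -0.00029, REST -0.0287 and SERPINB3 -0.0581. Centred on the mode, 10 genes were higher. An adjusted p of 0.01 left 29 lower and 0 higher, and a minimum change of 0.25 left 41 lower and 0 higher. Trend and robust moderation gave 84 lower and 44 higher. Dropping the 11 genes that share an exact value in either column gave 80 lower and 33 higher, against 61 and 16 in the main fit. Leaving out a culture gave 30 to 37 lower and 0 higher.

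Against A431 culture, the deposited values gave 21 lower, centring on the mode 2 higher, trend and robust moderation 23 lower and 7 higher, and equal SD 1 lower. Leaving out a column gave 0 lower and 0 to 1 higher, and FERMT1 ranged from -0.51 to 0.0389, turning without CAL27 culture column 2. For tumors against culture, the deposited values gave 29 higher, 1 common variance 0 lower and 0 higher, and equal SD 18 lower, with DUT at 1.95, MCM5 at 0.15 and SMC4 at 0.84. Leaving out a tumor column gave 34 to 43 lower and 43 to 50 higher. The fits without a culture column also changed to 1 common variance, so the effect of a culture alone was not tested. Apart from the settings that drop genes or samples, the cause was not tested.

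No paired analysis was possible because the value columns carry no replicate numbers. Each culture value rests on 2 columns, and the depth that would limit it is unknown.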

Other observations

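In the limma fit of CAL27 tumors against culture, 7 of 24 genes of differentiation and cornification (29.2%, against 16.5% over all genes) were higher in tumors and 1 (4.17%, against 14.4%) was lower, with a median difference of 0.20 against 0.03 over all genes. With the columns scaled to equal SD, 5 were higher (20.8%, against 20.2% over all genes) and none was lower. Besides the genes named above, KRTDAP, a secreted keratinocyte peptide, differed by 1.80 and SBSN, suprabasin, by 1.39, and GLTP was lower by a difference of -1.67. Of 14 squamous and epidermal transcription factors 6 (42.9%, against 16.5% over all genes) were higher in tumors, with a median difference of 0.72, and 3 (21.4%, against 20.2%) were higher with the columns scaled to equal SD. NOTCH3, a receptor that drives differentiation, differed by 1.98. TP63, already lower in culture, was lower in tumors by a difference of -1.53, which turned to 0.17 on the equal-SD scale. These genes were chosen after their values were seen.

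Of 8 genes in the list of AP-1 factors and MYC, JUN, FOSL1 and JUNB (37.5%, against 14.4% over all genes) were lower in tumors than in culture, by differences of -1.81, -1.49 and -1.18, and none was higher. On the equal-SD scale JUN stayed lower (-0.96), and FOSL1 and JUNB turned to 0.61 and 0.21, and MYC was called higher. JUN had a mean of -0.13 in culture and was not called there. None of the 13 junction genes differed between tumors and culture by this test, the 4 that were higher in culture included, although MPZL2 was called lower on the equal-SD scale. All tumor calls of the unscaled fit are lost with 1 common variance, and dependence on a single culture was not tested apart from that change.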
